A study of Mus musculus with 4 samples.

Results

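Foxp3 positive T cells, the regulatory T cells of the tumour, were read from 4 single-cell libraries of leukocytes taken from KPC tumours. A cell was included when it had 300 to 5000 detected genes and at most 6% of its unique molecular identifiers (UMIs, 1 per captured transcript) from mitochondrial genes, at least 1 Foxp3 UMI and at least 1 UMI of Cd3d, Cd3e, Cd3g, Trac or Trbc2, with Cd8a, Cd8b1 and Csf1r all at 0 UMIs. The members were chosen by these measured values, which took 360 of the 51841 cells that passed the limits on genes and mitochondrial UMIs, of 55090 deposited cells. The reference class was 718 Foxp3 negative CD4 T cells, which met the same rule with Foxp3 at 0 UMIs and at least 1 Cd4 UMI.

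KPC is a mouse pancreatic carcinoma line, and here it was grown under the skin of male C57BL/6 mice. The Untreated library came from mice given no agonist. The STING agonist library came from mice whose tumours were injected once with ADU-S100, the LTbR agonist library from mice given repeated intraperitoneal doses of 4H8, an antibody that activates the lymphotoxin-β receptor, and the STING and LTbR agonist library (the combination) from mice given both. Tumours of each group were pooled before live CD45+ cells were sorted, so every group had 1 library, and no difference between treatments could be tested against the spread between mice. Intervals given for treatments are 95% and cover counting error only.

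Foxp3 is the transcription factor that specifies regulatory T cells, which restrain other T cells. They take up IL-2 through a receptor that includes CD25 (Il2ra), remove costimulatory ligands from antigen-presenting cells through CTLA-4, and release inhibitory cytokines such as IL-10. In tumours and other tissues many of them carry an activated programme, with TNF receptor family members, integrins that hold cells in epithelia, and granzyme B, whereas those that circulate through lymphoid organs keep Ccr7 and Tcf7.

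The untreated library held 152 Foxp3 positive T cells, the STING agonist library 55, the LTbR agonist library 106 and the combination 47. Of 523 kept cells with a Foxp3 UMI, 95 were left out for lack of a T cell gene, 25 for a Cd8a or Cd8b1 UMI and 43 for a Csf1r UMI. The selection rested on a single Foxp3 UMI in 96 of the 360 cells, and this share was uneven, at 17.1, 25.5, 33.0 and 44.7% in the untreated, STING agonist, LTbR agonist and combination libraries (the order in which 4 values are given from here on). Foxp3 itself stood at 978, 936, 799 and 941 UMIs per 1000000 (CPM) in the summed cells, a level that the selection fixed.

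The other 4 markers of the cell type were not used by the rule. Ikzf2, which encodes the regulatory T cell factor Helios, was detected in 98.7, 96.4, 93.4 and 85.1% of Foxp3 positive T cells, against 30, 22.6, 23.4 and 25.7% of Foxp3 negative CD4 T cells. Il2ra was detected in 86.2, 80, 81.1 and 68.1% against 30.6, 31.0, 33.7 and 23%. Ctla4 was detected in 96.7, 83.6, 92.5 and 91.5% against 75.3, 73.8, 59.6 and 57.2%, and Tnfrsf4 (OX40) in 81.6, 85.5, 71.7 and 51.1% against 52.4, 61.9, 41.3 and 41.4%. At least 3 of these 4 markers were present in 144 of 152, 50 of 55, 93 of 106 and 32 of 47 Foxp3 positive T cells. Among Foxp3 negative CD4 T cells this held for 50 of 170, 23 of 84, 70 of 312 and 29 of 152. The label was thus borne out in most cells of each library, but part of the reference class also held these markers. The cells just inside the rule, those with 1 Foxp3 UMI, had Ikzf2 in 100, 92.9, 94.3 and 85.7%, Ctla4 in 92.3, 85.7, 82.9 and 95.2%, Il2ra in 88.5, 57.1, 74.3 and 57.1%, and Tnfrsf4 in 61.5, 85.7, 57.1 and 28.6%. In the combination Tnfrsf4 was thus in a smaller share of these cells than of Foxp3 negative cells, and 12 of these 21 cells held at least 3 of the 4 markers. Those just outside it, at 0 Foxp3 UMIs, are the Foxp3 negative cells above. Free RNA can also place a UMI in a cell. Foxp3 was detected in 0.311, 0.0944, 0.142 and 0.0656% of macrophages and monocytes, at median depths of 6947, 7096, 5214 and 3381 UMIs, and in 1.16, 0.885, 0.432 and 0.147% of CD8 T cells.

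Depth differed between libraries. Median UMIs per Foxp3 positive T cell were 3679, 3327, 2939 and 1609, and the summed UMIs were 612604, 219089, 389457 and 103128, so values of the combination are the least precise. No barcode was shared between the Foxp3 positive sets of any pair of libraries, whereas 34 to 83 barcodes were shared between pairs among all deposited cells. Transcripts of other cell types were present and uneven. The 5 neutrophil markers summed to 356, 2739, 701 and 456 CPM, led by S100a9, with all 5 present in every library. The 8 macrophage markers summed to 171, 233, 565 and 737 CPM, with Csf1r at 0 by the rule and the other 7 present in every library. The 6 B and plasma cell markers summed to 9.79, 13.7, 537 and 126 CPM, and 158 of the 209 UMIs in the LTbR agonist library were Jchain. Markers of natural killer cells, dendritic cells and carcinoma cells summed to 13.1, 0, 46.2 and 38.8 CPM, to 19.6, 0, 10.3 and 0 CPM and to 18.0, 22.8, 23.1 and 19.4 CPM, the gamma-delta T cell gene Trdc reached 1, 2, 1 and 0 UMIs, and the 2 mast cell markers were at 0. Foxp3 positive T cells with at least 2 markers of another lineage numbered 18, 19, 17 and 10. The part of these transcripts in the differences between treatments was not tested.

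**Figure D1:**
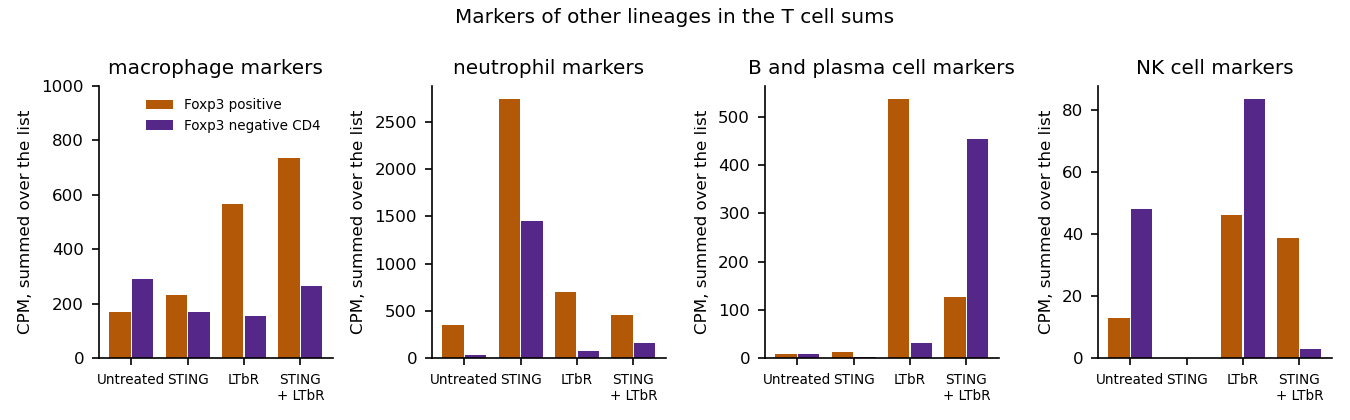
Summed level of marker genes of 4 other lineages (vertical axis, CPM, each panel with its own scale) in Foxp3 positive T cells and Foxp3 negative CD4 T cells of the 4 libraries (horizontal axis). Bars are 1 library each, with no error. Neutrophil markers were highest in the STING agonist library in both classes (2739 and 1450 CPM), and B and plasma cell markers in the LTbR agonist library for Foxp3 positive T cells (537 CPM).

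Foxp3 positive T cells took a smaller share of the sorted leukocytes in all 3 treated libraries than in the untreated one. They made up 1.95% of kept cells in untreated tumours (152 of 7776; exact Clopper-Pearson interval 1.66 to 2.29%), 0.384% with the STING agonist (0.289 to 0.499%), 0.755% with the LTbR agonist (0.618 to 0.912%) and 0.299% with the combination (0.220 to 0.398%). The shares with the STING agonist, the LTbR agonist and the combination were 0.196 (0.144 to 0.267), 0.386 (0.302 to 0.494) and 0.153 (0.111 to 0.212) times the untreated share. The intervals of the STING agonist and the combination overlapped, with a ratio of combination to STING agonist of 0.780 (0.529 to 1.15), which was 0.579 (0.354 to 0.945) with 2 Foxp3 UMIs needed. These shares also depend on how many other leukocytes each library held: with neutrophils out of the denominator the STING agonist ratio was 0.273, and that of combination to STING agonist 0.577 (0.381 to 0.874). The study, which ran 2 single-cell experiments, reported no apparent effect of the agonists on regulatory T cell abundance. Its clustering of cells was not repeated here.

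Against other T cells the order changed. Among CD4 T cells, counted as Foxp3 positive plus Foxp3 negative cells, Foxp3 positive cells were 47.2% in untreated tumours, 39.6% with the STING agonist, 25.4% with the LTbR agonist and 23.6% with the combination. Only the Foxp3 negative class needed a Cd4 UMI, and with one needed in both classes the shares were 33.9, 26.3, 15.4 and 11.6%. Relative to untreated, the STING agonist share was 0.838 times as large, and its interval of 0.662 to 1.06 included 1, but without cells holding other lineages' markers the ratio was 0.739 (0.552 to 0.989). The LTbR agonist share was 0.537 (0.439 to 0.657) and the combination share 0.50 (0.380 to 0.659) times as large. Set against each other, the combination and the LTbR agonist had a ratio of 0.931, with an interval of 0.691 to 1.26 that included 1. For each 100 CD8 T cells there were 29.7, 24.6, 15.3 and 6.93 Foxp3 positive T cells. This number was 0.825 (0.584 to 1.17), 0.516 (0.392 to 0.678) and 0.233 (0.165 to 0.330) times the untreated one, and without cells holding other lineages' markers the STING agonist ratio was 0.650 (0.432 to 0.976). In the combination it was also below the STING agonist (0.282, 0.186 to 0.429) and the LTbR agonist (0.452, 0.315 to 0.647). Of all kept cells with a T cell gene and no Csf1r UMI, Foxp3 positive T cells were 10.8, 6.85, 4.70 and 2.78%. The STING agonist share was 0.634 (0.472 to 0.852) times the untreated one. The combination share was 0.592 (0.422 to 0.830) times that of the LTbR agonist. With cells thinned to 1000 UMIs these ratios were 0.674 (0.443 to 1.03) and 0.686 (0.436 to 1.08), and both intervals included 1. The combination library was the shallowest, so shares were also taken at equal depth. With every cell thinned to 1000 UMIs, Foxp3 positive T cells were 1.10, 0.218, 0.438 and 0.212% of kept cells, 40.7, 41.2, 25.7 and 21.6% of CD4 T cells, and 20.5, 19.3, 12.6 and 5.82 per 100 CD8 T cells. Cells below 1000 UMIs, 2, 2, 7 and 7 of them Foxp3 positive, were left out of the thinned values.

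**Figure D2:**
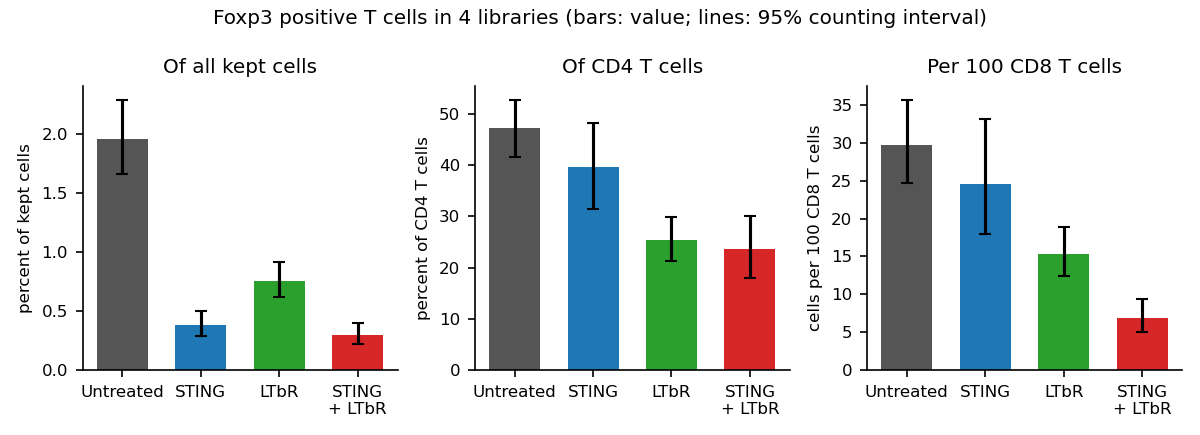
Foxp3 positive T cells in the 4 libraries as a percent of kept cells, as a percent of CD4 T cells, and per 100 CD8 T cells (vertical axes, each starting at 0). Bars are 1 library each and lines are 95% counting intervals. The untreated library is highest in all 3 panels, at 1.95%, 47.2% and 29.7, but its interval overlaps that of the STING agonist in the panels of CD4 and CD8 T cells.

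Foxp3 positive and Foxp3 negative CD4 T cells were compared within libraries, by edgeR's quasi-likelihood test on the 8 class sums with the library as a term. This comparison has 4 libraries, which are 4 different treatments, as its replicates. Of 5856 genes tested, 469 (8.01%) were higher and 547 (9.34%) lower in Foxp3 positive T cells at an adjusted p under 0.05. Of these, 440 and 485 had the same direction in all 4 libraries. A gene passed edgeR's filter on low counts when at least 4 of the 8 sums reached 27.03 CPM. Of the called genes, 130 higher and 128 lower ones passed only through the class in which they were higher. This means that all 4 sums of that class reached the level and fewer than 4 of the other class did. The filter itself thus favoured a difference in these genes. They are described below by their levels with no p, and all 933 tested genes of this kind, called or not, were left out of the list counts and medians, a choice made after the values were seen. Over the other 4923 genes 6.89% were higher and 8.51% lower. The called genes include 4 that the rules used: Foxp3 higher, and Cd4, Cd3g and Trbc2 lower. Among the other genes, suppressive effectors, TNF receptors, cell cycle and glycolysis genes were called mostly higher, and genes of resting lymphoid and follicular T cells mostly lower.

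All 4 markers outside the rule were higher. Ikzf2 stood at 3994, 2725, 3626 and 3025 CPM in Foxp3 positive cells and at 465, 169, 348 and 565 CPM in Foxp3 negative cells, a log2 fold change of 3.14 ± 0.18 (SE; edgeR adjusted p = 1.8e-08). Il2ra stood at 1908, 2241, 1867 and 1532 CPM against 503, 257, 390 and 314 CPM (2.31 ± 0.15, edgeR adjusted p = 4.7e-08). The lowest Foxp3 positive library exceeded the highest Foxp3 negative one for both genes. Ctla4 and Tnfrsf4 were higher by 1.46 ± 0.12 and 1.29 ± 0.12 on the log2 scale (edgeR adjusted p = 6.7e-07 and 1.7e-06).

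Suppressive effectors were higher as a group: 9 of 13 counted genes rose and the other 4 did not pass, with a list median of 0.78 on the log2 scale against -0.01 over all counted genes. Gzmb, the granzyme B gene, had the smallest p of any gene outside the rule. It stood at 617, 1639, 958 and 601 CPM against 60.1, 117, 105 and 79.9 CPM (log2 fold change 3.27 ± 0.15, edgeR adjusted p = 2.4e-09). Both classes had their highest level in the STING agonist library, and in the LTbR agonist library 140 of the 373 Gzmb UMIs of Foxp3 positive cells came from 1 cell. Itgae, the integrin chain CD103 that binds epithelial E-cadherin, stood at 400, 484, 344 and 398 CPM against 54.9, 29.3, 27.5 and 54.2 CPM (3.24 ± 0.20). Itgb8 and Itgav encode the chains of an integrin that releases active TGF-β. Itgb8 was at 599, 511, 403 and 368 CPM against 79.0, 29.3, 41.7 and 85.6 CPM, and Itgav at 2682, 2419, 1903 and 1813 CPM against 563, 683, 653 and 648 CPM (log2 fold changes 2.98 and 1.72). Areg, the growth factor amphiregulin made by tissue regulatory T cells, was at 1347, 1196, 1286 and 1387 CPM against 450, 553, 275 and 243 CPM, with little spread over the Foxp3 positive sums. Il10 passed the filter only through Foxp3 positive cells, and its levels are given with the treatments.

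The TNF receptor family and costimulatory list had 6 higher and 2 lower of 10 counted genes (median 0.64). Tnfrsf9 (4-1BB) was at 997, 1009, 637 and 650 CPM against 161, 296, 166 and 211 CPM (1.95 ± 0.16). The 2 lower genes were the costimulatory receptors Cd28 and Cd226. Tnfrsf8 (CD30), which passed only through Foxp3 positive cells and is not in this count, was at 104, 164, 77 and 145 CPM against 5.15, 3.25, 6.10 and 8.56 CPM. Inhibitory receptors split, with Ctla4, Tigit, Havcr2 and Tox higher and Pdcd1 and Btla lower of 8 counted. Pdcd1, which encodes PD-1, was at 142, 73.0, 87.3 and 126 CPM against 340, 299, 209 and 217 CPM (log2 fold change -1.39, edgeR adjusted p = 4.1e-05), so every Foxp3 positive library lay below every Foxp3 negative one.

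In the tissue effector list 7 of 18 counted genes were higher and 2, Pparg and Bhlhe40, lower. Klrg1, a receptor of terminally differentiated cells, is not in this count, since it passed only through Foxp3 positive cells, at 266, 356, 249 and 165 CPM against 58.4, 13.0, 19.3 and 14.3 CPM. In the chemokine receptor list 3 of 10 counted genes were higher and 2 (Cxcr6 and S1pr1) lower, and Ccr2 was higher by 1.81 on the log2 scale. Cxcr6 was lower in 3 of the 4 libraries. Of 14 identity and transcription factor genes, 3 were higher (Ikzf2, Izumo1r and Capg) and 4 lower (Runx3, Bach2, Satb1 and Nrp1). Nrp1, often used as a mark of thymus-derived regulatory T cells, was at 147, 77.6, 139 and 252 CPM against 371, 345, 314 and 322 CPM (-1.30 ± 0.20, edgeR adjusted p = 0.0002). In the list of the IL-2 receptor and its STAT5 pathway Il2ra and Il2rb were higher of 11 counted.

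Genes of resting lymphoid T cells were lower, with 6 of 10 counted genes lower and 1 higher (median -0.57). Lef1, a partner of Tcf7 in naive T cells, was at 113, 173, 110.4 and 107 CPM against 149, 302, 298 and 391 CPM (-1.10 ± 0.20, edgeR adjusted p = 0.00093). Tcf7 and Bcl2 passed the filter only through Foxp3 negative cells. Tcf7, the factor of naive and memory T cells, was at 8.16, 41.1, 30.8 and 29.1 CPM against 316, 338, 404 and 399 CPM. Bcl2, which protects resting lymphocytes from death, was at 16.3, 18.3, 113 and 77.6 CPM against 369, 481, 546 and 482 CPM. In both genes every Foxp3 positive library lay below every Foxp3 negative one.

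Helper T cell cytokines were near or at 0 in Foxp3 positive T cells. Ifng, Il17a, Il21 and Csf2 had 5, 4, 0 and 1 UMIs in them over the 4 libraries, and such genes passed edgeR's filter only through the Foxp3 negative cells, so no count of called genes is given for the helper list. Il13, Il5 and Il4, the cytokines of type 2 helper cells, had 0 UMIs among 1324278 in Foxp3 positive cells, against 623, 437 and 188 UMIs among 2223648 in Foxp3 negative cells. A count of 0 allows up to 3 UMIs, or 2.27 CPM over all Foxp3 positive cells, so these genes were at least 124-fold, 86.8-fold and 37.3-fold lower. By the same floor Il2 was at least 32.4-fold, Il17f and Il21 at least 27.6-fold, and Il22 at least 25.2-fold lower. Single libraries carried much of these counts, among them the untreated library 349 of the Il5 UMIs, the STING agonist library 100 of the Il22 UMIs, and the LTbR agonist library 418 of the Il13, 162 of the Il4 and 122 of the Il2 UMIs. With the library left out that lowered each bound most, the bounds were 51.5-fold for Il13, 12.7-fold for Il5 and Il17f, 6.53-fold for Il4, 10.3-fold for Il2, 16.8-fold for Il21 and 5.19-fold for Il22. The library left out was the untreated one for Il5, Il17f and Il21, that of the STING agonist for Il22, and that of the LTbR agonist for Il13, Il4 and Il2. The counts came from few cells, 26 Foxp3 negative cells for Il13 and 20 for Il5, and these genes other than Il21 were below edgeR's filter. Il17a was at 1.63, 4.56, 5.14 and 0 CPM against 142, 481, 84.4 and 108 CPM. Tnfsf11 (RANKL) and Tnfsf8 (CD30 ligand), TNF family ligands of activated helper cells, also passed the filter only through Foxp3 negative cells. Tnfsf11 was at 8.16, 13.7, 15.4 and 9.70 CPM against 179, 247, 333 and 414 CPM, and Tnfsf8 at 39.2, 0, 10.3 and 9.70 CPM against 711, 1011, 746 and 893 CPM. Ccl1, a chemokine that binds CCR8, had 1 UMI in Foxp3 positive cells and 829 in Foxp3 negative cells, from 45 cells. Follicular genes were lower too (Bcl6, Pdcd1 and Sh2d1a of 5 counted), with Icos higher.

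The rule for naming genes also took Neb, Glrx, Arl5a and Hopx among the higher genes, with log2 fold changes of 2.55, 2.56, 2.57 and 1.71, and Arap2, Themis and St6galnac3 among the lower ones, with -2.52, -1.88 and -1.82. It also took Tbc1d4, Ramp3, Gpm6b and Pde3b, which passed the filter only through Foxp3 negative cells, and these stood at 0 to 46.2 CPM in Foxp3 positive cells and at 137 to 553 CPM in Foxp3 negative cells. It took Il1b as well, at 372, 1296, 424 and 630 CPM against 99.6, 400, 146 and 171 CPM (1.67 ± 0.13, edgeR adjusted p = 2.2e-07). Il1b is an inflammatory cytokine of myeloid cells, 164 of its 228 UMIs in the untreated library were in 1 cell, and the log2 fold change was -0.072 without cells that held 2 markers of another lineage. The 5 neutrophil markers summed to 356, 2739, 701 and 456 CPM in Foxp3 positive against 30.9, 1450, 78.3 and 157 CPM in Foxp3 negative T cells.

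**Figure D3:**
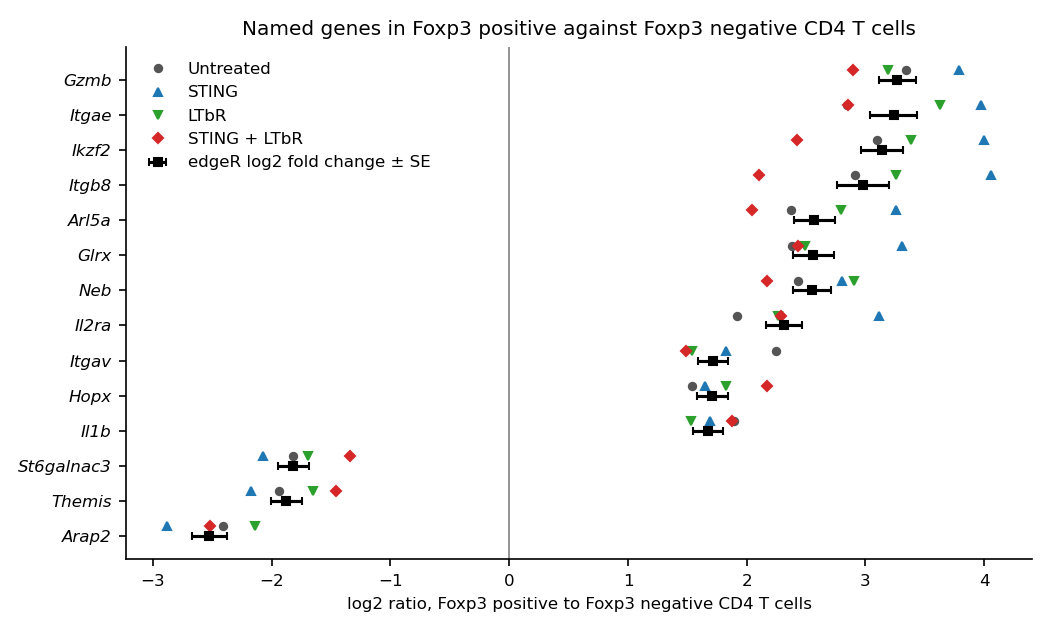
Log2 ratio of Foxp3 positive to Foxp3 negative CD4 T cells (horizontal axis) for the 14 genes named by rule that did not pass the filter through 1 class only (vertical axis). Black squares with bars are the edgeR log2 fold change ± SE, and coloured symbols are the 4 libraries. The log2 fold changes run from Gzmb at 3.27 to Arap2 at -2.52, and the rule required all 4 libraries on the same side of 0.

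The remaining lists are read against the 6.89% higher and 8.51% lower of all counted genes. Of 8 counted cell cycle genes 6 were higher (median 0.71), Mki67 among them at 220, 315, 264 and 252 CPM against 89.3, 55.3, 123 and 106 CPM (1.39 ± 0.20, edgeR adjusted p = 0.00011). Mki67, a protein of dividing cells, was detected in 16.4, 12.7, 21.7 and 19.1% of Foxp3 positive T cells, and 1 cell held 28 of its 135 UMIs in the untreated library. Of 14 glycolysis and hypoxia genes 9 were higher (median 0.62), such as Gapdh, Pkm and Ldha by 0.68, 0.82 and 0.52 on the log2 scale. Of 11 genes of MHC class I presentation 4 were higher (B2m, H2-D1, Tap1 and H2-Q7, median 0.27). The NF-kB list had 3 higher (Birc2, Traf1 and Traf3) and 2 lower (Tnfaip3 and Map3k14) of 16 counted, T cell receptor activation genes 1 higher and 3 lower of 13, and dissociation and heat shock genes 1 higher and 3 lower of 12, which for the higher genes of the last 2 lists and the lower genes of the NF-kB list was near the share over all counted genes.

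**Figure D4:**
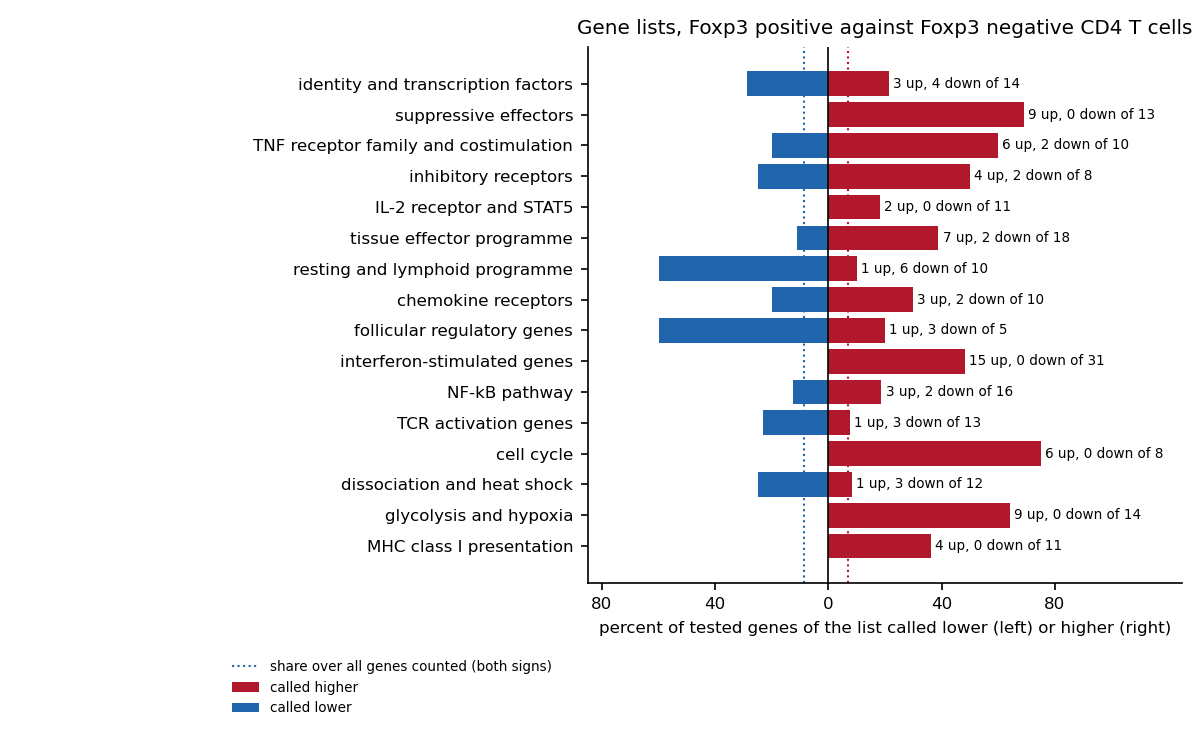
Percent of the counted genes of each list (horizontal axis), without those that passed the filter only through the class where they were higher, that were called lower (left of 0) or higher (right of 0) in Foxp3 positive than in Foxp3 negative CD4 T cells at an edgeR adjusted p under 0.05. Dotted lines mark the share over all counted genes, 8.51% lower and 6.89% higher. The bars reach farthest right for cell cycle genes (6 of 8) and suppressive effectors (9 of 13), and farthest left for resting lymphoid genes (6 of 10) and follicular genes (3 of 5).

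The interferon-stimulated genes that were called differed between the classes in 1 direction. Of 31 counted, 15 were called higher in Foxp3 positive T cells, each of them higher in all 4 libraries, and the other 16 did not pass. Called or not, 25 of the 31 had a log2 fold change above 0 and 6 below, with a list median of 0.48. Isg15, a ubiquitin-like protein, was at 135, 301, 211 and 145 CPM against 115, 117, 84.4 and 65.6 CPM (0.92 ± 0.20, edgeR adjusted p = 0.0043). The untreated library, whose mice had received no agonist, already showed the higher level, by a small margin. Igtp, a guanosine triphosphatase induced by interferon-γ, and Bst2, the membrane protein tetherin, were higher by 0.95 and 0.78, and Gbp7 and Stat2 by 0.72 and 0.61 on the log2 scale. Without the LTbR agonist library the calls of Isg15 (0.76), Bst2 (0.54), Gbp7 (0.54) and Stat2 (0.61) were lost, and in cells thinned to 1000 UMIs Isg15 differed by 0.15.

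Many interferon-induced genes are known to carry the interferon-stimulated response element, to which STAT and IRF factors bind, in their promoters. The 250 bases before the gene start were searched for the core of this element, GAAANNGAAA on either strand, in the RefSeq promoter sequences of build GRCm38.p6. Of the 15 genes called higher 10 had a sequence, and 7 of these (70%) held the core, against 6 of 13 (46.2%) of the list's genes that were counted and not called and 936 of 27025 (3.46%) of all genes. The list was chosen as interferon-stimulated genes, so the gap to all genes is no result about these cells. The difference of 7 of 10 from 6 of 13 was not tested. The 5 stretches below show the core, in capitals, with the bases around it, written on the strand of the gene. They are chr4:156200850-156200921 on the minus strand for Isg15, chr10:128270251-128270310 on the plus strand for Stat2, chr8:71537562-71537627 on the minus strand for Bst2, chr11:58199497-58199555 on the plus strand for Igtp, and chr3:142530258-142530317 on the plus strand for Gbp7. Overlapping matches in Isg15 and Bst2 are written as 1 run, and a match of letters describes the sequence and not binding.
Isg15: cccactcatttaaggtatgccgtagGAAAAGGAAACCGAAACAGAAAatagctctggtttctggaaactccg
Stat2: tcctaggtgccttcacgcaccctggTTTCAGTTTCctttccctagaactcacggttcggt
Bst2: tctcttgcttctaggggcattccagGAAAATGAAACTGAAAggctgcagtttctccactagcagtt
Igtp: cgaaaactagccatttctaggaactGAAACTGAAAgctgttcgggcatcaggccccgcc
Gbp7: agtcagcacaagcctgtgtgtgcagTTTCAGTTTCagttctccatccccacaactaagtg

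The receptors and ligands of the treatments were measured in the same cells, and were chosen after their values were seen. Sting1, the target of ADU-S100, was at 88.1, 82.2, 87.3 and 67.9 CPM in Foxp3 positive T cells, from 54, 18, 34 and 7 UMIs. Ltbr, the target of the antibody, had 0, 2, 1 and 0 UMIs, so it was at or under the floor of 3 counts in each library. Ltb, which encodes the membrane-bound chain of its ligand, was at 547, 361, 406 and 524 CPM, whereas the other ligand genes Lta and Tnfsf14 reached 7, 3, 2 and 2 UMIs and 1, 2, 0 and 0 UMIs. Ltb did not differ from Foxp3 negative cells beyond the spread (0.25 ± 0.13, edgeR adjusted p = 0.22).

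For treatments, UMIs were summed over the Foxp3 positive T cells of each library and compared as CPM. A gene was called when it had at least 30 UMIs over both libraries, differed at least 2-fold, and had a 95% counting interval of the ratio that left out 1. All 3 comparisons with untreated share that 1 library. Because UMIs of 1 cell are not independent, each call was also examined without the cell with most UMIs of the gene, without cells holding other lineages' markers, with at least 2 Foxp3 UMIs needed, and without likely doublets. None of the 5 markers was called in any comparison. The level of Foxp3 was fixed by the selection, and the intervals of Il2ra, Ctla4, Ikzf2 and Tnfrsf4 lay within 2-fold of untreated. Even so, all 5 were below untreated with the LTbR agonist and with the combination, and 4 of 5 with the STING agonist. Ctla4 was at 3869, 2360, 2655 and 3462 CPM, and Tnfrsf4 at 1376, 1356, 819 and 882 CPM. The chemokine receptor gene Cxcr6 was called higher with each of the 3 treatments.

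Cxcr6, which holds T cells in tissue near cells that display CXCL16, was at 44.1, 164, 103 and 213 CPM in Foxp3 positive T cells. All 3 treated libraries lay above the untreated one, with log2 ratios of 1.89 (1.14 to 2.67), 1.21 (0.48 to 1.98) and 2.28 (1.39 to 3.14), and these were 2.08, 1.5 and 1.96 without the top cell of each library. Cxcr6 UMIs were in 7.89, 21.8, 15.1 and 10.6% of cells. In Foxp3 negative CD4 T cells the gene went the other way, from 439 CPM to 328, 322 and 197 CPM, so the classes met in the combination.

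With the STING agonist, 144 of 4874 tested genes (2.95%) were higher and 142 (2.91%) lower, and 31 and 41 of them were still called in all 4 alternative sets of cells. The balance of higher and lower genes depended on the cells and the depth: without the cell with most UMIs of each gene the counts were 102 and 253, and with cells thinned to 1000 UMIs 25 and 21, of which 7 and 4 were also called without thinning. Gzmb rose from 617 to 1639 CPM, a log2 ratio of 1.41 (1.20 to 1.62), and was 1.29 without the top cells. Klf2, a factor of resting and recirculating T cells, went from 96.3 to 297 CPM (1.62, 1.09 to 2.16), and rose in Foxp3 negative cells too (1.05). Isg15 went from 135 to 301 CPM (1.16, 0.66 to 1.64) against a log2 ratio of 0.03 in Foxp3 negative cells, but without cells holding other lineages' markers its ratio was 0.12. It was the only gene of 30 interferon-stimulated genes called higher, while Ifi206, Ifi213 and Iigp1 were called lower, of which only Iigp1 was called in all 4 alternative sets. Ccr7, the receptor that guides T cells to lymph nodes, fell from 209 to 54.8 CPM (-1.88, -2.92 to -1.08), and Itga4 from 238 to 105 CPM (-1.16, -1.89 to -0.54). Cxcr4 rose, from 198 to 420 CPM (1.09, 0.68 to 1.49), a call that was lost in at least 1 alternative set. Lag3, an inhibitory receptor, was at 47.3 and 123 CPM, but 12 of its 27 UMIs with the STING agonist were in 1 cell, and its log2 ratio was 0.71 without the top cells. The 3 neutrophil markers that were tested, and Apoe of the 2 macrophage markers tested, were called higher.

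The largest rises under the STING agonist among genes that the naming rule allowed, which leaves out markers of other lineages in every comparison, rested on few cells. Cxcl3 had a log2 ratio of 5.47, with 38 of its 39 UMIs in 1 cell, and Klrb1b one of 4.46, which turned to -1.15 without likely doublets. Slfn4, Slc8a1 and Syk had ratios of 3.41, 3.31 and 2.79, and without likely doublets 1.66, 1.10 and 0.52. The largest falls included Pard3b and Aoah, which went from 56 and 45 UMIs to 0 and so were at least 6.68-fold and 5.36-fold lower, and Tapt1 and Uimc1, which had 1 and 2 UMIs left, with log2 ratios of -2.95 (-8.86 to -0.93) and -2.79 (-6.19 to -1.17). Of 56 Pard3b UMIs in the untreated library 23 were in 1 cell, and of 45 Aoah UMIs, from 2.63% of cells, 18 were in 1 cell, and the Aoah call was lost in at least 1 alternative set. Without the UMIs of those cells the bounds were 3.93-fold and 3.22-fold.

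With the LTbR agonist, 114 of 5475 tested genes (2.08%) were higher and 95 (1.74%) lower, with 42 and 48 called in all 4 alternative sets. Without the top cells the counts were 92 and 124, and in thinned cells 20 and 12, of which 4 and 0 were also called without thinning. Ccr8, a chemokine receptor characteristic of tumour regulatory T cells, fell from 317 to 113 CPM (-1.47, -1.99 to -1.01), and in Foxp3 negative cells from 165 to 110 CPM. Penk, the proenkephalin gene made by some tissue regulatory T cells, fell from 255 to 61.6 CPM (-2.02, -2.73 to -1.42), and in Foxp3 negative cells the library had the higher level (538 against 287 CPM). Cd27 went from 245 to 116 CPM (-1.07, -1.60 to -0.59) and Bmyc from 266 to 69.3 CPM (-1.92, -2.59 to -1.35). In the list of TNF receptors and costimulation, Cd27 was the only call, which was lost in at least 1 alternative set. Of its 10 tested genes 8 were below untreated, with a median of -0.43 against 0.0014 over all tested genes. The list median was below 0 in Foxp3 negative cells as well (-0.31). Bcl2 rose, from 10 UMIs (16.3 CPM) to 44 (113 CPM), a log2 ratio of 2.74 (1.78 to 3.95), and S1pr1, the receptor for exit from tissue, from 27.8 to 92.4 CPM (1.71, 0.87 to 2.66). Both stayed far below the Foxp3 negative levels of 546 and 240 CPM.

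Among the largest rises with the LTbR agonist, Slpi (5.13) had 563 of 590 UMIs in 1 cell, and Gzmc (4.95) 28 of 29. Cxcl9 (2.94) was at -1.47 without cells holding other lineages' markers. Spp1, the osteopontin gene, was at 16.3 CPM in untreated and 326 CPM in LTbR agonist cells, with a log2 ratio of 4.26 (3.39 to 5.42) that was 3.84 without the top cells, and it was called in all 4 alternative sets. Macrophage markers rose beside it: all 5 that were tested were called higher, as were both B and plasma cell markers tested (Jchain and Mzb1) and S100a9 of 2 neutrophil markers. Ppil1 and Lxn fell by 2.01 and 1.96 on the log2 scale, each to 4 UMIs, and Pard3b had 1 UMI left of 56 (-4.58, -10.48 to -2.62).

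With the combination, 113 of 4458 tested genes (2.53%) were higher and 128 (2.87%) lower, with 17 and 23 called in all 4 alternative sets. Without the top cells the counts were 41 and 284, and in thinned cells 22 and 16, of which 2 and 1 were also called without thinning. Scaling by edgeR's TMM factors shifted all log2 ratios by -0.14 and turned the counts into 77 higher and 195 lower. Il10 was at 81.6, 137, 159 and 388 CPM, with a log2 ratio of 2.25 (1.61 to 2.88) in the combination, where 24 of 40 UMIs were in 1 cell, and 1.55 without the top cells. In Foxp3 negative cells Il10 was at 65.2, 16.3, 91.5 and 45.7 CPM. Ccr8 fell to 126 CPM (-1.28, -2.26 to -0.52) and Ccr7 to 48.5 CPM (-1.98, -3.75 to -0.85), while Ccr7 rose in Foxp3 negative cells, from 70.4 to 220 CPM (1.63). Penk fell to 116 CPM (-1.08, -2.11 to -0.28), again with a rise in Foxp3 negative cells (1.57), and with 2 Foxp3 UMIs needed its log2 ratio was -0.27. Without cells holding other lineages' markers that of Ccr8 was -0.73. Cd69, an early activation gene, rose from 175 to 378 CPM (1.13, 0.55 to 1.66), the only call of 12 tested T cell receptor activation genes. Fos, which is on the list of dissociation and heat shock genes, rose from 152 to 398 CPM (1.40, 0.82 to 1.93). On that list 10 of 11 tested genes lay above untreated in the combination (median 0.55, Fos and Jun called), 11 of 12 with the STING agonist (median 0.57, Fos and Atf3 called) and 10 of 12 with the LTbR agonist (median 0.12, Fosb and Ier2 called). The part of tissue dissociation in these differences was not tested. Lrrc32, which encodes GARP, the anchor of latent TGF-β on regulatory T cells, had 1 UMI in the combination against 56 in untreated (9.70 against 91.4 CPM; -2.66, -8.57 to -0.70), and Gbp2 1 against 65 (-2.88, -8.78 to -0.92). Slc16a3, a lactate exporter, fell from 233 to 48.5 CPM (-2.13, -3.91 to -1.01).

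**Figure D5:**
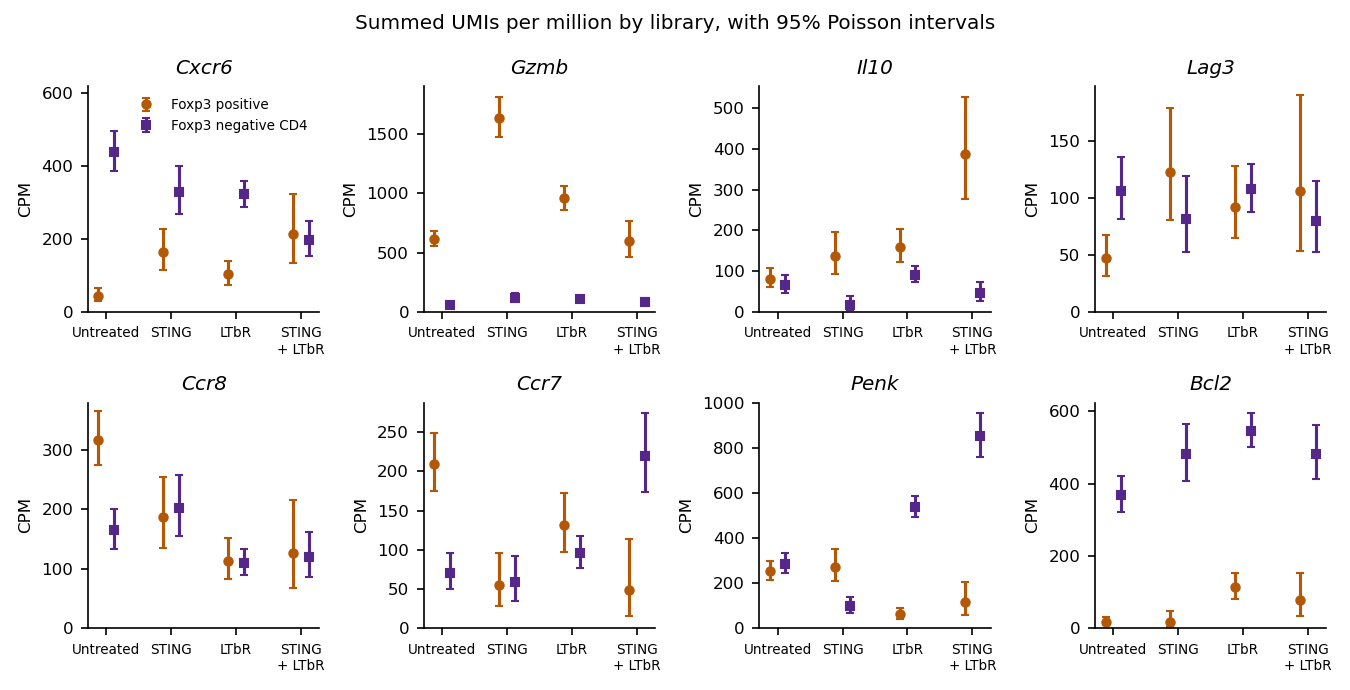
Level of 8 genes in CPM (vertical axes, starting at 0) in the 4 libraries (horizontal axis), for Foxp3 positive T cells and Foxp3 negative CD4 T cells. Points are the summed cells of 1 library and lines are 95% Poisson intervals. In Foxp3 positive T cells Cxcr6 was lowest in untreated tumours (44.1 CPM), Gzmb was highest with the STING agonist (1639 CPM), and Ccr8 was highest in untreated tumours (317 CPM), while Penk and Ccr7 went opposite ways in the classes under the combination.

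The lists are read against the shares of all tested genes given above, 1.74 to 2.95% for each direction and treatment, at which most lists would hold 0 or 1 called gene. In the combination 5 of 11 tested cell cycle genes were called higher (Pcna, Mcm3, Mcm6, Stmn1 and Tuba1b) and 10 of 11 were above untreated (median 0.68), against 0 of 11 called with the STING agonist and 2 of 14 (Mcm3 and Mcm5) with the LTbR agonist. None of these 5 calls in the combination was made in all 4 alternative sets. Without the top cells the log2 ratios of Mcm3, Mcm6, Stmn1 and Tuba1b were 1.12, 0.99, 1.33 and -0.68. Pcna, the DNA polymerase clamp, had a log2 ratio of 1.13 that was 0.60 without the top cells and 0.46 without cells holding other lineages' markers. Of the suppressive effectors, 2 of 15 were called higher with the STING agonist (Gzmb and Lag3), 0 of 16 with the LTbR agonist, and 2 of 15 with the combination (Il10 and Lag3, with Lrrc32 lower). Lag3 had a log2 ratio of 1.21 in the combination, and of 0.01 without the top cells. In the tissue effector list the calls were Ccr8 with the LTbR agonist, and Ccr8 and Bhlhe40 with the combination, all lower, of 18 tested. Of 14 glycolysis and hypoxia genes 3 were lower in the combination (Pgam1, Bnip3 and Ero1a) and 13 lay below untreated (median -0.44). Pgam1 was at 222, 315, 193 and 97.0 CPM and Bnip3 at 150, 173, 134 and 67.9 CPM, lowest in the combination, but their calls were lost in at least 1 alternative set. Ero1a, an oxidase of the endoplasmic reticulum, was called in all 4, at 397, 374, 316 and 175 CPM. Interferon-stimulated genes had 1 higher (Irgm1) and 3 lower (Ifi213, Gbp2 and Gbp5) of 30 in the combination, and 1 higher (Rsad2) of 31 with the LTbR agonist. The NF-kB list had 1 call of 18 with each single agonist (Nfkb2 with the STING agonist and Nfkbib with the LTbR agonist) and 2 with the combination (Birc2 and Bcl3), all lower. No gene of MHC class I presentation was called with any treatment, of 11 tested. No list was tested against all tested genes.

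Both macrophage markers tested in the combination were called higher. Lyz2 went from 27 to 33 UMIs (44.1 to 320.0 CPM; 2.86, 2.08 to 3.65), above the ratios of Cxcr6 and Il10, with 23 of the 33 UMIs in 1 cell and a ratio of 1.35 without the top cells, and Apoe had a log2 ratio of 1.39 (0.04 to 2.54). Of the genes that the naming rule allowed, the largest rises beside Cxcr6 and Il10 were H1f5, Ccl3 and H2-Ab1. All 34 H1f5 UMIs were in 1 cell. Ccl3, a chemokine of activated lymphocytes and myeloid cells, went from 53.9 to 233 CPM (2.12, 1.29 to 2.91; 1.76 without the top cells), and H2-Ab1, a class II antigen-presenting molecule, had a log2 ratio of 2.09, with 22 of 35 UMIs in 1 cell, and of 0.44 without cells holding other lineages' markers. The largest falls, Vps26a, Rln3, Slc5a3 and Ccdc174 among them, reached 0 UMIs. These 4 genes were at least 3.25-fold, 2.58-fold, 2.13-fold and 2.02-fold lower. Of the 58 Vps26a UMIs of the untreated library 25 were in 1 cell, without which its bound was 1.85-fold, and the calls of Slc5a3 and Ccdc174 were lost in at least 1 alternative set.

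The combination was also set against each single agonist. Against the STING agonist 69 of 2371 tested genes (2.91%) were higher and 92 (3.88%) lower, with 13 and 27 called in all 4 alternative sets, TMM scaling gave 40 and 133, leaving out the top cells 40 and 122, and thinning 8 and 13, of which 0 and 5 were also called without it. Against the LTbR agonist 58 of 3493 (1.66%) were higher and 98 (2.81%) lower, with 8 and 25 called in all 4, TMM scaling gave 38 and 132, leaving out the top cells 21 and 163, and thinning 15 and 14, of which 1 and 1 were also called without it. Il10 was called higher against both single agonists, with 24 of its 40 combination UMIs in 1 cell, Gzmb, Klrg1 and Isg15 were called lower against the STING agonist, and Cxcr6 was called higher against the LTbR agonist (213 against 103 CPM), with 11 of its 22 combination UMIs in 1 cell. Each of these calls was lost in at least 1 of the 4 alternative sets. Of the genes described above, Slc16a3, Pgam1 and Ero1a (lower against the STING agonist), Cd69 (higher against the LTbR agonist) and Gbp2, Spp1 and Ccr7 (lower against the LTbR agonist) were called in all 4.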

How the data were processed

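Live CD45+ cells of KPC tumours were profiled with a 5′ single-cell kit. The authors deposited 1 matrix of UMI counts per library, raw and not normalized; the file headers name Cell Ranger 8.0.1, whereas the submitters' processing notes name version 7.1.0 and mm10. Cells were limited to 300 to 5000 genes and at most 6% mitochondrial UMIs, as in the study's methods, and grouped by the treatment label. Members, gene lists and rules were chosen with earlier results of these data known. Doublets were not removed; Scrublet (scanpy 1.11.5, top 0.4% per 1000 cells) served as an alternative. UMIs were summed per library and class. The 8 sums of Foxp3 positive and Foxp3 negative CD4 T cells were tested with edgeR 4.0.16 (library as a term, TMM, filterByExpr, Benjamini-Hochberg), with DESeq2 1.42.0 as an alternative. Treatments, with 1 library each, were compared as CPM ratios after adding 0.5 UMIs, with exact binomial intervals of the 2 counts, and called at 2-fold. Ratios of shares have log-normal intervals. No p-value was computed between treatments.

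Named genes were the 12 higher and 12 lower genes with the smallest p among those at least 2-fold and in 1 direction in all 4 libraries, the 5 largest called rises and falls per treatment, and members of the lists, without rule genes, receptor, immunoglobulin, ribosomal, mitochondrial, sex-linked, predicted and other-lineage genes; some genes that these rules took are not reported here. On simulated counts edgeR found 97.6% of 4-fold and 26.3% of 2-fold changes among 5542 genes, and the interval rule called 1.14 to 2.18% of unchanged genes. The total UMIs of deposited cells were 62248447, 85855398, 73704334 and 52109958 in the untreated, STING agonist, LTbR agonist and combination libraries. PCR copies are merged by UMIs, and intervals and the floor of 3 counts cover counting error only.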

Additional observations from a re-analysis of the deposited data

How the results depend on the processing

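Results were recomputed with other cells, depths, filters and scalings; needing a Cd4 UMI for gene levels, and counting genes without the top cell of each library, were chosen after seeing the data. Of 66 recomputed ratios of shares 60 moved by less than their interval. The others were 0.273 for the STING agonist among kept cells with neutrophils out, 0.343 for the combination among CD4 T cells with a Cd4 UMI needed, and, with 2 Foxp3 UMIs needed, 0.102 among kept cells, 0.343 among CD4 T cells and 0.156 per CD8 T cell for the combination and 0.435 among CD4 T cells for the LTbR agonist. Counts of called genes moved most. With cells thinned to 1000 UMIs they were 25 higher and 21 lower (STING agonist), 20 and 12 (LTbR agonist), 22 and 16 (combination), 8 and 13 (combination against STING agonist) and 15 and 14 (against LTbR agonist), of which only 7 and 4, 4 and 0, 2 and 1, 0 and 5, and 1 and 1 were among the genes called without thinning. With a minimum of 100 UMIs, which tests fewer genes, they were 32 and 24, 22 and 22, 12 and 37, 2 and 18, and 5 and 20. STING agonist rises numbered 92 with 2 Foxp3 UMIs needed and 84 without likely doublets. Without the top cell, 253 genes were lower with the STING agonist, 41 higher and 284 lower with the combination, 40 higher against the STING agonist, and 21 higher and 163 lower against the LTbR agonist. With TMM factors 195 were lower with the combination, 40 higher against the STING agonist and 38 higher against the LTbR agonist. Against the STING agonist 42 were higher and 52 lower without cells holding other lineages' markers, and 40 higher with a Cd4 UMI needed. The cause of these shifts was not tested. Against Foxp3 negative cells, DESeq2 called 278 higher and 326 lower, thinned cells 108 and 143, and leaving out each library gave 293 to 498 higher and 362 to 514 lower, lowest without the LTbR agonist library. Some single genes changed sign. With the STING agonist Bach2 was at -0.53 without likely doublets and -2.20 thinned, Klrb1b at -1.15 without likely doublets, and Slc8a1 at -0.089 and Uimc1 at 0.65 thinned. With the LTbR agonist Cxcl9 was at -2.61, -1.47 and -1.42 with 2 Foxp3 UMIs needed, without cells of other lineages' markers and without likely doublets. In the combination H1f5 was at -2.88, -3.12, -0.77, -2.73 and -2.86 with 2 Foxp3 UMIs needed, without cells of other lineages' markers, thinned, with a Cd4 UMI needed and without the top cell. Against Foxp3 negative cells Il1b was at -0.18 with 2 Foxp3 UMIs needed and -0.072 without cells of other lineages' markers, and Klf2 at 0.18 thinned. No paired analysis was possible because each treatment has 1 library, as far as treatments are concerned; the comparison with Foxp3 negative cells had the library as a term. Depth limits the combination most, where 47 cells held 103128 UMIs.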

Other observations

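A T cell receptor beta chain variable (Trbv) gene was not read in every Foxp3 positive T cell. One was seen in 78 of 152, 30 of 55, 28 of 106 and 14 of 47 cells of the untreated, STING agonist, LTbR agonist and combination libraries, and these spread over 17, 14, 13 and 8 of the 35 Trbv genes in the files. The most frequent one differed by library. It was Trbv20 in 15 of the 78 untreated cells (19.2%, exact Clopper-Pearson interval 11.2 to 29.7%), Trbv19 in 6 of 30 with the STING agonist (20.0%, 7.71 to 38.6%), Trbv26 in 5 of 28 with the LTbR agonist (17.9%, 6.06 to 36.9%) and Trbv13-3 in 3 of 14 in the combination (21.4%, 4.66 to 50.8%). The intervals overlap but belong to different genes, so they cannot show whether the use of any 1 gene differed between libraries. By summed UMIs, Trbv20 and Trbv3 were called lower with the LTbR agonist than in untreated tumours, and Trbv19 higher with the STING agonist. Each of these calls was made in all 4 alternative sets of cells. Full receptor sequences were not analysed here.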
